A study of Mus musculus with 44 samples.

Results

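Th1 cultures of wild-type mouse CD4 T cells were set against Th0 cultures of the same genotype, 5 libraries labelled Th1 WT against 5 labelled Th0 WT, chosen by title from the 44 libraries of the series. The starting cells of all 10 were naive CD4 T cells, sorted out of splenocytes from C57BL/6NTac mice, wild type (WT) at microRNA-150, which is a small RNA abundant in mature lymphocytes. The cells were plated at 150000 per well on a coat of antibody to CD3, with soluble antibody to CD28, and grown for 3 days. Th1 cultures also received interleukin-12 (IL-12) and an antibody to interleukin-4 (IL-4). Th0 cultures received the CD3 and CD28 antibodies alone. The age and sex of the mice, and whether animals were pooled, are not given in the labels. Libraries are numbered 1 to 5 in each group, and the meaning of a number is not labelled. The p-values therefore measure spread between libraries. Unless a fit of the 10 libraries alone is named, that spread was estimated over all groups of the series, not from these 10 only.

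IL-12 binds a receptor of the subunits IL-12Rβ1 and IL-12Rβ2 and activates the transcription factor STAT4, which with T-bet, the product of Tbx21, drives the Th1 state and its cytokine interferon-gamma (IFN-γ). IL-4 acts through STAT6 and GATA3 to drive the opposing Th2 state, and an antibody to IL-4 removes that signal. Activated cells without added cytokines, called Th0, make some of the cytokines of both states.

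The RNA was poly(A) RNA, and the values are counts per gene, given as CPM, each count scaled by its library's TMM-adjusted total. The libraries held 81242275 to 118333012 counts each. Of 55416 genes, 21873 were tested. The 12 listed CD4 T cell markers were present in every library, with summed levels of 2601 to 2905 CPM in Th1 WT and 2365 to 3286 CPM in Th0 WT; with the library number as a block Cd2 rose by 0.72 and Cd4 fell by 0.35 on the log2 scale (adjusted p = 0.00239 and 0.0195 by edgeR). Libraries numbered 4 stood apart by CD8 T cell markers. Cd8a, which encodes a chain of CD8, stood at 131.5 CPM in Th1 WT 4 and 112.7 CPM in Th0 WT 4, against 2.41 to 8.49 CPM in the other Th1 WT libraries and 2.62 to 9.62 CPM in the other Th0 WT libraries. The summed B cell markers were also highest with that number, at 362, 416, 89.0, 731 and 367 CPM in Th1 WT 1 to 5, against 569, 597, 178, 1435 and 380 CPM in Th0 WT 1 to 5. The sum was lower in the Th1 library of every pair. Of the 10 B cell markers, 4 were lower and 1 was higher in all 5 pairs. Myeloid and dendritic cell markers summed to 8.52 to 33.6 CPM in Th1 WT and 7.24 to 18.4 CPM in Th0 WT. Of the CD8 T cell and natural killer cell markers, 1 of 8 rose with the block, the receptor gene Klrc1 (lost without number 4, as was Cd4), at 73.9 CPM in Th1 WT 4 and 29.1 CPM in Th0 WT 4. The part of such cells in the other results was not tested, and results that turn on number 4 are also given without it.

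Same-numbered libraries deviated together. Deviations from the group means correlated at 0.56 to 0.77 between Th1 WT and Th0 WT libraries of the same number, and at -0.64 to 0.42 between libraries of other numbers, over 10274 genes. Each of the 5 Th1 WT libraries correlated best with the Th0 WT library of its own number. Transcripts of the Y-linked gene Ddx3y were at 0 in libraries 3 and 5 of both cultures, where Xist, the X-inactivation RNA, stood at 2155 and 2493 CPM in Th1 WT and at 2011 and 2723 CPM in Th0 WT. The numbers were therefore read as pairs, and values with the number as a block stand beside the unpaired ones where they change a call.

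**Figure D1:**
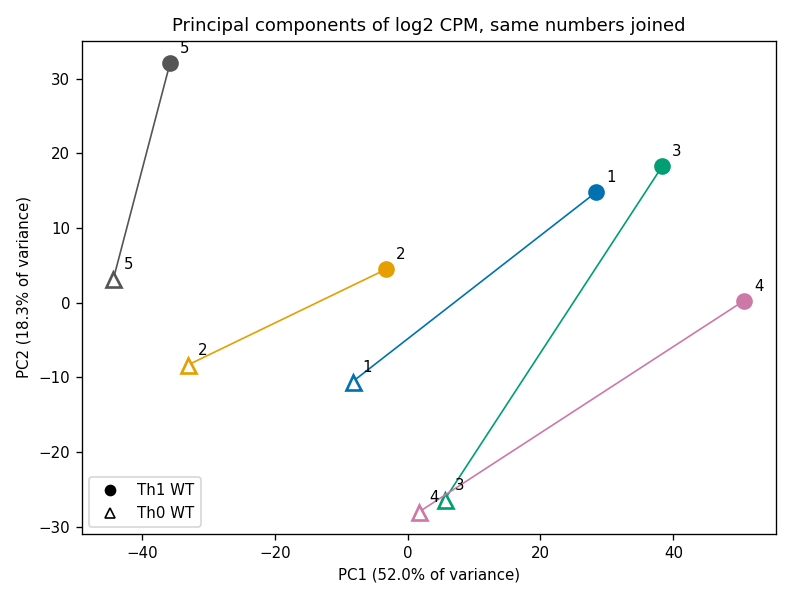
The first component (horizontal, 51.98% of variance) and the second (vertical, 18.3%) of log2 CPM are plotted for 5 Th1 WT libraries (filled circles) and 5 Th0 WT libraries (open triangles), with lines joining equal numbers. Every Th1 library lies to the right of and above its Th0 partner, and libraries 2 and 5 lie left of the other 3 in both cultures.

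On the first principal component the Th1 library exceeded its Th0 partner in all 5 pairs. Its scores were 28.4, -3.27, 38.4, 50.7 and -35.8 in Th1 WT 1 to 5, against -8.27, -33.1, 5.57, 1.73 and -44.3 in Th0 WT 1 to 5. The range over numbers within either culture was wider than the step within any pair, and Th1 WT 5 lay below every Th0 library but Th0 WT 5.

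Of the 21873 genes tested, 665 passed the 0.05 threshold on the adjusted p in edgeR's unpaired quasi-likelihood test, which is 3.04% of them. These were 486 genes higher in Th1 WT (2.22%) and 179 lower (0.818%). With the library number as a block, 1563 genes passed (7.15%), 936 higher (4.28%) and 627 lower (2.87%), among them 465 of the 486 and 173 of the 179. The blocked fit without all libraries numbered WT 4 called 767 of 21745 genes (3.53%), 509 higher and 258 lower. Fewer genes thus passed there in general, and calls reported below as lost without number 4 stand against that. The median log2 fold change over all genes was -0.01, and over the called genes 1.57 for the higher and -1.02 for the lower. All 5 same-numbered pairs differed in one direction in 4674 genes (21.4%), with 2200 higher (10.1%) and 2474 lower (11.3%) in Th1 WT. The 2 sets of 5 libraries did not overlap in 692 genes (3.16%), with 432 higher (1.98%) and 260 lower (1.19%). Of the 486 genes called higher, 417 were higher in all 5 pairs, and in 305 the lowest Th1 value was that of Th1 WT 5. Leaving out Th1 WT 5 brought the total to 1285 genes, and leaving out Th1 WT 3, Th1 WT 1 or Th1 WT 4 brought it to 358, 426 and 426.

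The receptor for interleukin-18, which makes T cells release IFN-γ together with IL-12, was higher in Th1 cultures in both of its subunits. Il18r1 (ENSMUSG00000026070), the ligand-binding chain, stood at 142.8, 148, 170.1, 201 and 130.7 CPM in Th1 WT 1 to 5, against 15.7, 7.88, 8.74, 25.1 and 7.62 CPM in Th0 WT 1 to 5. Il18r1 rose by 3.61 ± 0.42 (SE) on the log2 scale (adjusted p = 4.33e-07 by edgeR). Il18rap, the signalling chain, stood at 61.3, 88.5, 70.9, 96.8 and 104.9 CPM in Th1 WT 1 to 5, against 26.3, 21.3, 11.01, 22.8 and 20.6 CPM in Th0 WT 1 to 5. edgeR put the log2 fold change of Il18rap at 2.05 ± 0.22 (SE; adjusted p = 1.21e-07). For both genes every Th1 library lay above every Th0 library. Whether more cells carried these transcripts or each cell carried more cannot be told apart in bulk RNA.

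The receptor for IL-12 itself showed smaller differences than the IL-18 receptor. Il12rb2, the inducible chain, stood at 650.0, 337, 863, 837 and 165 CPM in Th1 WT 1 to 5, against 379, 76.03, 360.2, 344 and 52.6 CPM in Th0 WT 1 to 5. It was higher in 5 of 5 pairs, while the groups overlapped, since Th1 WT 2 and 5 lay under Th0 WT 1, 3 and 4. Its log2 fold change of 1.23 did not pass unpaired (adjusted p = 0.519 by edgeR) or with the block over all libraries (adjusted p = 0.142 by edgeR), and passed when these 10 libraries alone were fitted with the block (adjusted p = 0.00473 by edgeR). That last fit called 1592 of 18134 genes (8.78%), 882 higher (4.86%) and 710 lower (3.92%). Il12rb1, the constitutive chain, had a value of -0.16 ± 0.42 (SE) and Stat4 one of -0.50 ± 0.39 (SE) as the log2 fold change, and neither passed in any of these 3 fits.

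The receptor for IFN-γ changed in its second chain. Ifngr2, the signalling subunit, stood at 9.59, 8.45, 8.78, 7.49 and 7.04 CPM in Th1 WT 1 to 5, against 22.5, 20.3, 24.4, 22.3 and 17.02 CPM in Th0 WT 1 to 5. For Ifngr2 the log2 fold change was -1.36 ± 0.19 (SE; edgeR adjusted p = 1.34e-05). All 5 Th1 libraries lay under 10 CPM and all 5 Th0 libraries over 16 CPM. Ifngr1, the ligand-binding subunit, averaged 86.4 ± 52.8 CPM in Th1 WT and 53.9 ± 11.5 CPM in Th0 WT (SD, n = 5 each), with a log2 fold change of 0.68 that did not pass in any of these fits. Of the 12 genes listed as receptors and signalling molecules of IL-12, IL-18 and IFN-γ, 2 rose and 1 fell, against 2.22% and 0.818% of all genes tested. The counts were the same with the block, against 4.28% and 2.87% of all genes, with a median log2 fold change of 0.01. The counts of every list below stand against these shares, and against 4.86% and 3.92% in the 10 libraries alone with the block.

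**Figure D2:**
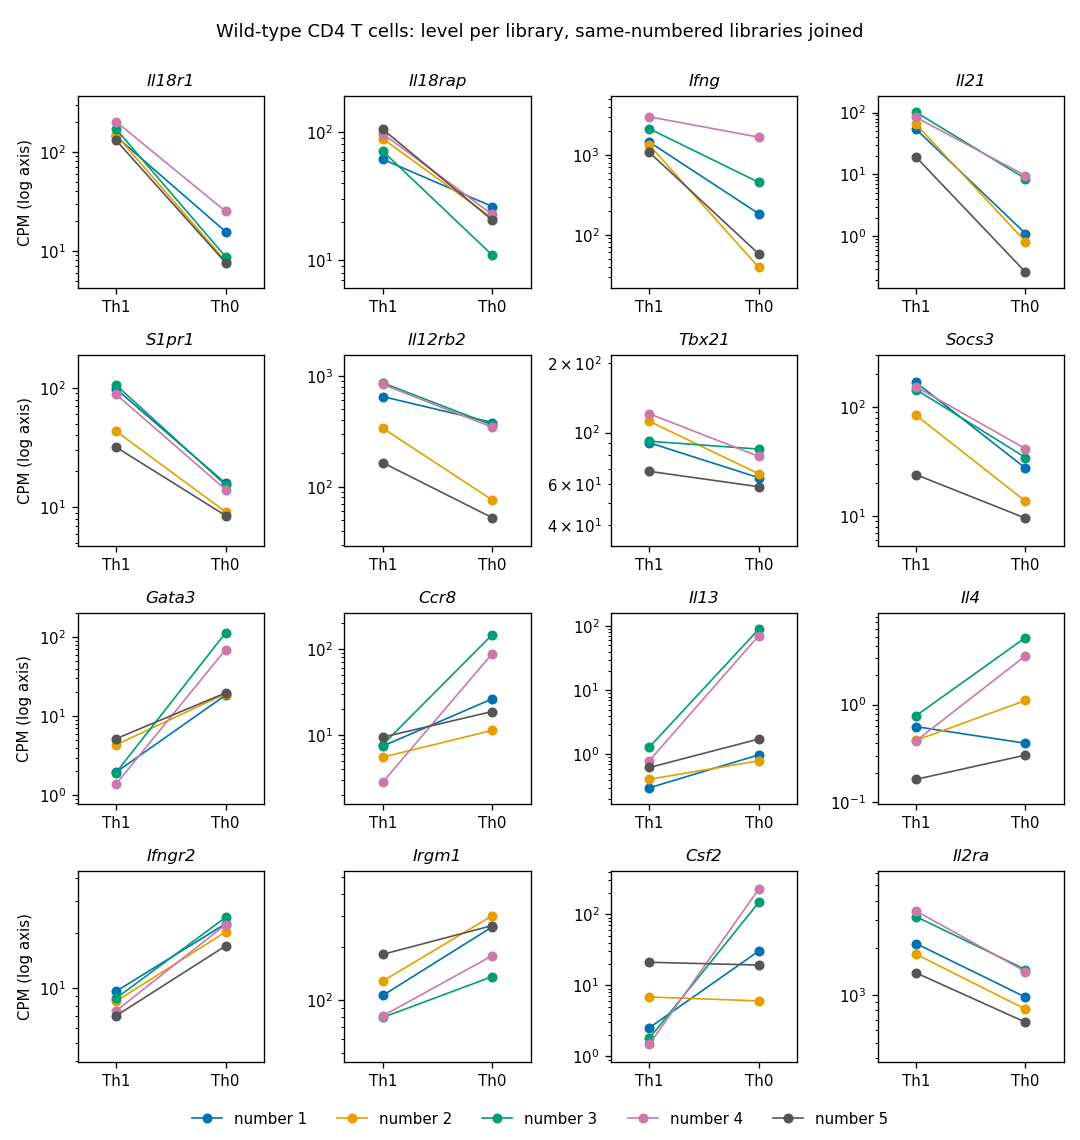
Levels of 16 genes in CPM (vertical, log axes with their own ranges) are drawn for Th1 and Th0 libraries of wild-type cells, and lines join libraries of the same number. Il18r1, Il18rap, S1pr1 and Il21 are higher and Gata3, Ccr8 and Ifngr2 lower in every Th1 library than in every Th0 library, while the lines of Csf2 run in both directions.

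Promoters are shown for 4 genes that were higher in the Th1 library of every pair. They were chosen because they hold a match to TTCNNNGAA, which STAT4, the factor that acts downstream of IL-12, binds. The windows come from RefSeq on GRCm38.p6, run from 250 bases before to 50 bases after an annotated start, and are written 5′ to 3′ on the strand of the gene with matches to TTCNNNGAA in capitals. The window of Il18r1 is chr1:40465756-40466055 on the plus strand, the one of 3 annotated starts that holds the motif, with matches that begin 219 and 152 bases before the start. Il12rb2 is at chr6:67376139-67376438 on the minus strand, Ifng at chr10:118440796-118441095 on the plus strand and Socs3, the STAT-induced feedback inhibitor, at chr11:117969317-117969616 on the minus strand. The match begins 249 bases before the start in Ifng and 154 in Socs3, and that of Il12rb2 is nearer to the start than both. The windows of Il18rap, Ifngr2, Hlx, Tbx21 and Stat4 hold no match. A match also lies in a window of Il4 and of Foxp3, which did not pass. Among genes that passed unpaired or with the block, it lies in windows of Etv6, Il7r and Lilr4b, which rose. It lies as well in windows of Cd96, Isg20, Orai1 and Mcm5, which fell.
Il18r1: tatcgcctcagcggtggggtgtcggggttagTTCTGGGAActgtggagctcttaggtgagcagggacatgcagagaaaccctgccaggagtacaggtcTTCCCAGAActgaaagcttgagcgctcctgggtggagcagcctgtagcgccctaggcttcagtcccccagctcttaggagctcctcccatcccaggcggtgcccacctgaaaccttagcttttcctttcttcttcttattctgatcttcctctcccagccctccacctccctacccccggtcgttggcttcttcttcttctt
Il12rb2: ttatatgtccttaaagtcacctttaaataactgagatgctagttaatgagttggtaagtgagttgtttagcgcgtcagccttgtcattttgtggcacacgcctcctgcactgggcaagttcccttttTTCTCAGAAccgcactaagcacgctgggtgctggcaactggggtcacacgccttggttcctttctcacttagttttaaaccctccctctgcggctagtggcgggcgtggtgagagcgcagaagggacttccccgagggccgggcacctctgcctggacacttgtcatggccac
Ifng: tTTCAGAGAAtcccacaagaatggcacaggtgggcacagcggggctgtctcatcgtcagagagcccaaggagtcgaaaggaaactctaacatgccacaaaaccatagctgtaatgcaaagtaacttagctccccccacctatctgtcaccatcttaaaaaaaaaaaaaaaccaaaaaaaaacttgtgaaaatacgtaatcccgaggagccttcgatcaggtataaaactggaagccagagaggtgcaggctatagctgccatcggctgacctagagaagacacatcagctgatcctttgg
Socs3: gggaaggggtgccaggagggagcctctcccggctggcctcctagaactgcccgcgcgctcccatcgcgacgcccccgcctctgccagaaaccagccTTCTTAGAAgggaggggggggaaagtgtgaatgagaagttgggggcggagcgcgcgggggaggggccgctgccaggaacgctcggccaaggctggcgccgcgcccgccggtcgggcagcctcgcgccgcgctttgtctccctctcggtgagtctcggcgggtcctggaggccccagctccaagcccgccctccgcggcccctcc

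Of the tested gene symbols, 12845 of 21781 had a promoter window. TTCNNNGAA on either strand was in 12.3% of the genes called higher (39 of 317 with a window) and 8.66% of those called lower, against 8.63% of all tested genes. The spacing that STAT6 binds, with 1 more base between TTC and GAA, was in 6.31% and 6.30%, against 6.68% of all. The letters GATA preceded by A or T and followed by A or G were in 25.2% and 30.7%, against 23.96% of all. The T-box motif TCACACC was in 4.10% and 3.15%, against 4.38% of all, and AGGTGTGA, every match of which holds a TCACACC match on the other strand, in 1.89% and 1.57%, against 1.21% of all. Matches to the STAT spacings may share bases. Of the genes called higher and lower with the block, 10.46% and 8.497% held TTCNNNGAA, 6.70% and 10.02% the STAT6 spacing, 24.7% and 25.7% the GATA form, 4.575% and 4.36% TCACACC, and 2.12% and 2.40% AGGTGTGA. These shares are counts of letters in the windows and were given no test.

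IFN-γ, the cytokine that defines Th1 cells, was transcribed in both cultures. Ifng (ENSMUSG00000055170) stood at 1442, 1323, 2115, 2985 and 1072 CPM in Th1 WT 1 to 5, against 183, 38.9, 452, 1660.5 and 57.4 CPM in Th0 WT 1 to 5. It was higher in the Th1 library of all 5 pairs, and the groups overlapped because Th0 WT 4 held more than Th1 WT 1, 2 and 5. Its log2 fold change was 1.90 ± 1.37 (SE) unpaired, which did not pass (adjusted p = 0.567 by edgeR), and 3.73 ± 1.09 (SE) with the block (adjusted p = 0.0349 by edgeR). Th0 WT 4 is also a library with Cd8a transcripts. Without all libraries numbered WT 4 the blocked log2 fold change was 3.94 and passed as well.

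Tbx21, the gene of T-bet, was expressed in both cultures and differed little. It stood at 90.4, 111.9, 91.8, 120.5 and 68.1 CPM in Th1 WT 1 to 5, against 63.96, 66.4, 84.9, 78.99 and 58.5 CPM in Th0 WT 1 to 5. The Th1 library was the higher in all 5 pairs, by less than the range over the Th1 libraries. Its log2 fold change was 0.45 ± 0.76 (SE), which passed neither unpaired nor with the block over all libraries (adjusted p = 0.847 and 0.774 by edgeR), and passed in the 10 libraries alone with the block (adjusted p = 0.039 by edgeR).

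Among the 12 listed Th1 transcription factors 1 rose and 0 fell, 2 rose with the block, and the median log2 fold change was 0.33. In the 10 libraries alone with the block 5 rose and 1 fell, Runx3 and Bhlhe40 rising beside Tbx21 (adjusted p = 0.013 and 0.0292 by edgeR). The member that fell there was Irf1, lower in 5 of 5 pairs (adjusted p = 0.0287 by edgeR). The riser in the unpaired test was Hlx, a homeobox factor that acts with T-bet at Ifng. Hlx stood at 2.41, 1.93, 4.44, 5.87 and 0.364 CPM in Th1 WT 1 to 5, against 0.0802, 0.0525, 0.0870, 0.613 and 0 CPM in Th0 WT 1 to 5. Hlx passed with a log2 fold change of 4.15 ± 1.11 (SE; edgeR adjusted p = 0.0262). The Th1 library was higher in every pair, but Th1 WT 5 fell below Th0 WT 4, and Hlx was low in all libraries. Its unpaired call was lost without any 1 of Th1 WT 3 and 4 and Th0 WT 1, 2, 3 and 5. With the block Prdm1 also rose, the gene of the effector repressor Blimp-1, at 13.6, 5.86, 20.5, 39.5 and 3.39 CPM in Th1 WT 1 to 5, against 2.76, 1.16, 6.32, 8.90 and 0.694 CPM in Th0 WT 1 to 5 (log2 fold change 2.18 ± 0.27 (SE), adjusted p = 5.79e-06 by edgeR). Eomes, which encodes a T-box relative of T-bet, averaged 33.8 ± 20.04 CPM in Th1 WT and 68.1 ± 44.5 CPM in Th0 WT (SD, n = 5 each) and was lower in 4 of 5 pairs without passing in any of these fits.

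The number of Th1 and cytotoxic effector genes that passed depended on the fit. Of 22, 1 rose and 0 fell unpaired, 3 rose and 0 fell with the block, 6 rose and 1 fell in the 10 libraries alone with the block, and the median log2 fold change was 0.40. In that last fit the granule gene Nkg7, the lymphotoxin gene Lta and the cathepsin gene Ctsw rose and Fasl, the death ligand, fell (adjusted p = 0.0236, 0.027, 0.045 and 0.0243 by edgeR), each in 5 of 5 pairs. Ifng and Ccr2, a receptor for inflammatory chemokines, rose with the block and not unpaired, Ccr2 by 1.27 ± 0.35 (SE) on the log2 scale (adjusted p = 0.0238 by edgeR). Its level of 32.8 CPM in Th1 WT 4 stood over the next Th1 library at 7.94 CPM, and without the libraries numbered WT 4 the blocked value was 0.86 and the call was lost. Granzyme B, the main cytotoxic protease, did not pass, with Gzmb at 1904 ± 2173 CPM in Th1 WT and 1851 ± 2017 CPM in Th0 WT (SD, n = 5 each) and a log2 fold change of 0.04 ± 1.31 (SE). It was highest in number 4 of both cultures. Cxcr3, the chemokine receptor most used to mark Th1 cells, averaged 7.57 ± 3.41 CPM in Th1 WT and 4.99 ± 1.41 CPM in Th0 WT (SD, n = 5 each) and did not pass in any of these fits.

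Of the listed genes that IFN-γ induces, none rose in the Th1 cultures in these fits. Of 27, 0 rose and 1 fell unpaired, 0 rose and 3 fell with the block, and 0 rose and 11 fell in the 10 libraries alone with the block. The median log2 fold change was -0.46, and 15 of the 27 were lower in all 5 pairs while 0 were higher in all 5. Over all genes tested, 11.3% were lower and 10.1% higher in all 5 pairs. The member that fell was Irgm1, a GTPase of cell-autonomous immunity, at 106.2, 128.2, 79.7, 81.3 and 182 CPM in Th1 WT 1 to 5, against 261, 302, 135.9, 179 and 265 CPM in Th0 WT 1 to 5. The log2 fold change of Irgm1 was -0.98 ± 0.27 (SE; edgeR adjusted p = 0.0355). It was lower in every pair, though Th1 WT 5 lay over Th0 WT 3 and 4. The unpaired call was lost without any 1 of Th1 WT 1, 3 and 4 and Th0 WT 1, 2 and 5.

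Tapbp, the chaperone of peptide loading, and Ciita, the activator of MHC class II genes, fell with the block. Tapbp changed by -0.54 ± 0.13 (SE) and Ciita by -1.42 ± 0.44 (SE) on the log2 scale (adjusted p = 0.00931 and 0.046 by edgeR). Ciita, which B cells also express, stood at 3.32, 5.07, 0.829, 4.52 and 5.08 CPM in Th1 WT 1 to 5, against 4.19, 9.45, 2.23, 35.2 and 8.86 CPM in Th0 WT 1 to 5. The highest was Th0 WT 4, where B cell markers were highest, and the sum of those markers was lower in the Th1 library of every pair. Without the libraries numbered WT 4, Tapbp was the 1 member of the 27 that fell with the block, and Ciita had a blocked value of -0.91. Over all genes, 258 of 21745 fell in that fit. The GTPase gene Iigp1 stood at 96.2, 195, 54.3, 36.05 and 264 CPM in Th1 WT 1 to 5, against 394, 549, 155, 217 and 541 CPM in Th0 WT 1 to 5. It was lower in every pair with overlapping groups, and its log2 fold change of -1.52 did not pass unpaired or with the block (adjusted p = 0.111 and 0.087 by edgeR) and passed in the 10 libraries alone with the block.

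Antiviral interferon-stimulated genes, which respond to type I interferons, fell more often than they rose where they passed. Of 22 listed, 0 rose and 0 fell unpaired, 0 rose and 6 fell with the block, 1 rose and 7 fell in the 10 libraries alone with the block, and the median log2 fold change was -0.83. The riser was Usp18, which encodes an inhibitor of interferon signalling, higher in 5 of 5 pairs with an unpaired log2 fold change of 1.03 (adjusted p = 0.0299 by edgeR in the 10 libraries with the block). At an unadjusted level the unpaired test by edgeR would have passed 7 of the 22 at p under 0.05, and DESeq2 called 1. Over all genes that unadjusted level passed 3205 of 21873, and DESeq2 called 991 (4.53%). Mx1, an antiviral GTPase, stood at 9.82, 6.73, 1.30, 1.94 and 4.84 CPM in Th1 WT 1 to 5, against 80.2, 21.9, 5.39, 11.6 and 7.52 CPM in Th0 WT 1 to 5. It was lower in each Th1 library than in its Th0 partner, with Th0 WT 1 far above the other Th0 libraries (log2 fold change with the block -1.91 ± 0.59 (SE), adjusted p = 0.0462 by edgeR). Irf7, the amplifier of the interferon response, Isg20, an exonuclease, and Rtp4 changed by -1.22, -1.37 and -1.59 with the block (adjusted p = 0.022, 0.00698 and 0.0326 by edgeR). Th0 WT 1 was the highest library for each of these 3 genes. Ifih1, an RNA sensor, and Xaf1 were the other members that fell with the block. Without the libraries numbered WT 4, 0 of the 22 passed with the block, with Mx1 at -1.73, Irf7 at -1.29, Isg20 at -1.28 and Rtp4 at -1.38. That fit called 767 of all 21745 genes, 258 of them lower.

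The Th2 programme was lower in its master factor and one of its chemokine receptors. Gata3 (ENSMUSG00000015619), the Th2 lineage factor, stood at 1.96, 4.34, 1.94, 1.39 and 5.19 CPM in Th1 WT 1 to 5, against 18.5, 19.2, 112.9, 69.3 and 19.7 CPM in Th0 WT 1 to 5. Gata3 changed by -4.02 ± 0.44 (SE) on the log2 scale (adjusted p = 1.49e-07 by edgeR). Every Th1 library was under 6 CPM and every Th0 library over 18 CPM, with Th0 WT 3 and 4 highest. Ccr8, a chemokine receptor of Th2 and regulatory T cells, stood at 7.44, 5.54, 7.72, 2.84 and 9.45 CPM in Th1 WT 1 to 5, against 26.3, 11.3, 146, 88.0 and 18.8 CPM in Th0 WT 1 to 5. edgeR put the log2 fold change of Ccr8 at -3.14 ± 0.51 (SE; adjusted p = 1.34e-04). It also passed with the block over all libraries, and did not in the 10 libraries alone with the block (adjusted p = 0.0585 by edgeR).

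The Th2 cytokines were low in most libraries. Il13 stood at 0.302, 0.410, 1.30, 0.798 and 0.626 CPM in Th1 WT 1 to 5, against 0.986, 0.797, 90.1, 71.4 and 1.74 CPM in Th0 WT 1 to 5. It was lower in all 5 pairs, and Th0 WT 3 and 4 stood far above the other 8 libraries. For Il13 the log2 fold change was -5.58 ± 1.59 (SE; edgeR adjusted p = 0.0414). With the block it was -2.91 and did not pass (adjusted p = 0.0776 by edgeR), and the unpaired call was lost without any 1 of Th1 WT 1 to 5 and Th0 WT 3 and 4. Il4 stood at 0.594, 0.429, 0.768, 0.424 and 0.171 CPM in Th1 WT 1 to 5, against 0.401, 1.10, 4.89, 3.17 and 0.303 CPM in Th0 WT 1 to 5. It was lower in 4 of 5 pairs, again with Th0 WT 3 and 4 highest, and did not pass unpaired or with the block (adjusted p = 0.178 and 0.135 by edgeR). A level of 3 counts, below which a value was treated as the floor, corresponded to 0.0254 to 0.0369 CPM in these libraries.

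Of 22 tested genes of the Th2 and IL-4-induced list, 1 rose and 4 fell, 5 rose and 3 fell with the block, and the median log2 fold change was -0.34. Epas1, a hypoxia-inducible factor, was the remaining member that fell, at 1.12 ± 0.606 CPM in Th1 WT and 7.999 ± 9.23 CPM in Th0 WT (SD, n = 5 each), and its call was lost without Th0 WT 3. The member that rose was Il1rl1, the receptor of interleukin-33, at 21.2, 28.7, 29.9, 39.98 and 48.05 CPM in Th1 WT 1 to 5, against 9.24, 1.72, 7.88, 10.8 and 3.97 CPM in Th0 WT 1 to 5. Its log2 fold change was 2.32 ± 0.60 (SE, adjusted p = 0.0215 by edgeR), and the groups did not overlap; the call was lost without Th0 WT 2 or Th0 WT 5. With the block Il10, Il24, Maf and Ccr3 rose as well. Il10, a regulatory cytokine that Th1 cells can also make, stood at 1.82, 2.85, 5.37, 25.8 and 2.29 CPM in Th1 WT 1 to 5, against 0.0688, 0.280, 1.39, 2.48 and 0.139 CPM in Th0 WT 1 to 5. It was higher in every pair and highest by far in Th1 WT 4 (log2 fold change with the block 3.40 ± 0.73 (SE), adjusted p = 0.00343 by edgeR). Ccr3, an eotaxin receptor, was low throughout, at 0.307 to 2.14 CPM in Th1 WT and 0 to 0.149 CPM in Th0 WT.

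Il21, the cytokine of helper cells for B cells, had the largest rise among the named genes called only with the block. It stood at 53.96, 64.8, 101.2, 83.7 and 19.1 CPM in Th1 WT 1 to 5, against 1.11, 0.823, 8.53, 9.56 and 0.265 CPM in Th0 WT 1 to 5. All 5 Th1 libraries lay above all 5 Th0 libraries, and Th0 WT 3 and 4 lay above the other Th0 libraries. Its log2 fold change was 3.99 ± 1.52 (SE) unpaired and 5.25 ± 1.06 (SE) with the block (adjusted p = 0.169 and 0.00192 by edgeR). Il24 stood at 51.3, 6.604, 119.02, 179 and 7.40 CPM in Th1 WT 1 to 5, against 1.23, 0.376, 75.1, 87.5 and 0.656 CPM in Th0 WT 1 to 5, higher in every pair, and passed with the block over all libraries (log2 fold change 3.41 ± 0.92 (SE), adjusted p = 0.0219 by edgeR). It did not pass unpaired or in the 10 libraries alone with the block (adjusted p = 0.0589 by edgeR).

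Growth and inflammatory cytokines went in both directions. Of 18 activation cytokines 1 rose and 1 fell, against 2.22% and 0.818% of all genes. With the block 4 rose and 2 fell, against 4.28% and 2.87%. The median unpaired log2 fold change was 0.25. Osm, oncostatin M, rose, averaging 79.8 ± 16.2 CPM in Th1 WT and 46.7 ± 16.8 CPM in Th0 WT (SD, n = 5 each), and its call was lost without Th0 WT 5. Csf2, which encodes the myeloid growth factor GM-CSF, stood at 2.52, 6.85, 1.79, 1.48 and 21.1 CPM in Th1 WT 1 to 5, against 30.4, 6.03, 148, 228 and 19.3 CPM in Th0 WT 1 to 5. It fell in the unpaired test (log2 fold change -3.68 ± 0.89 (SE), adjusted p = 0.013 by edgeR), but it was lower in 3 of 5 pairs and higher in the other 2, and did not pass with the block (adjusted p = 0.118 by edgeR). The unpaired call was lost without any 1 of Th1 WT 1, 3 and 4 and Th0 WT 4. Il2, the T cell growth factor, stood at 37.4, 228, 20.5, 1.02 and 293 CPM in Th1 WT 1 to 5, against 255, 176, 258, 169 and 329 CPM in Th0 WT 1 to 5. Th1 WT 4 and 3 were lowest and the Th0 libraries even, and its log2 fold change of -1.03 did not pass in any of these fits.

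With the block, Cd40lg, the CD40 ligand through which T cells help other cells, rose, averaging 155 ± 56.4 CPM in Th1 WT and 73.5 ± 39.6 CPM in Th0 WT (SD, n = 5 each). Tnfsf11, the cytokine RANKL, and Il12a, a shared chain of IL-12 and IL-35, fell with the block. Tnfsf11 stood at 27.3, 102.4, 14.5, 2.92 and 199 CPM in Th1 WT 1 to 5, against 181, 227, 156, 133.8 and 295 CPM in Th0 WT 1 to 5. It was lower in all 5 pairs, by the most in number 4, and Th1 WT 5 lay above 3 of the Th0 libraries (log2 fold change with the block -2.22 ± 0.59 (SE), adjusted p = 0.0202 by edgeR). Without the libraries numbered WT 4 its blocked value was -1.72, and the calls of Tnfsf11 and Il12a were lost.

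Among 14 Th17 genes 1 rose and 0 fell, 3 rose with the block, and the median log2 fold change was 0.64. Il23r, the receptor chain for interleukin-23, which pairs with IL-12Rβ1, stood at 9.78, 4.33, 14.8, 13.4 and 1.66 CPM in Th1 WT 1 to 5, against 0.344, 0.0788, 1.19, 0.495 and 0.416 CPM in Th0 WT 1 to 5. Il23r passed with a log2 fold change of 4.12 ± 0.99 (SE; edgeR adjusted p = 0.0125). Il21, described above, and Rora, a nuclear receptor of Th17 and innate lymphoid cells, were the members that rose with the block, Rora by 1.15 ± 0.34 (SE) on the log2 scale (adjusted p = 0.0349 by edgeR). The call of Rora was lost without the libraries numbered WT 4. Il17a averaged 0.543 ± 0.598 CPM in Th1 WT and 0.763 ± 1.05 CPM in Th0 WT (SD, n = 5 each).

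Of the 12 largest rises with a mean log2 CPM of 2 or more in which the groups were apart, most were in genes not commonly used to mark Th1 cells. Timp1, a secreted inhibitor of metalloproteinases, stood at 101.1, 22.6, 259, 97.6 and 8.53 CPM in Th1 WT 1 to 5, against 0.745, 0.481, 1.53, 0.643 and 0.959 CPM in Th0 WT 1 to 5. The log2 fold change of Timp1 was 6.81 ± 1.10 (SE; edgeR adjusted p = 1.47e-04). Th1 WT 5 was the lowest Th1 library, as it was for all 12 of the largest rises.

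Sema3b, a secreted semaphorin, stood at 65.98, 22.6, 67.02, 33.5 and 8.72 CPM in Th1 WT 1 to 5, against 2.26, 0.945, 0.983, 0.376 and 0.593 CPM in Th0 WT 1 to 5. Sema3b rose by 5.26 ± 0.93 (SE) on the log2 scale (adjusted p = 4.48e-04 by edgeR). Transporters were the next group. Atp2b4, a calcium pump of the plasma membrane, stood at 448, 182, 587, 627 and 85.1 CPM in Th1 WT 1 to 5, against 8.37, 7.48, 43.2, 47.5 and 7.19 CPM in Th0 WT 1 to 5. edgeR put the log2 fold change of Atp2b4 at 4.08 ± 0.87 (SE; adjusted p = 0.0037).

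Abca1, the exporter of cellular cholesterol, rose by 3.64 ± 0.58 (SE), Slc4a11, a solute carrier, by 3.58 ± 0.64 and Stom, the membrane scaffold stomatin, by 3.21 ± 0.46 on the log2 scale (adjusted p = 1.05e-04, 4.83e-04 and 3.03e-05 by edgeR). Abca1 stood at 82.1, 32.4, 107.1, 73.4 and 10.8 CPM in Th1 WT 1 to 5, against 6.83, 3.35, 5.18, 8.06 and 1.14 CPM in Th0 WT 1 to 5. Regulators made up the rest. Etv5, an ETS transcription factor, rose by 3.61 ± 0.50, Fes, a tyrosine kinase, by 3.04 ± 0.53, Eps8, an actin regulator, by 2.99 ± 0.64 and Gnal, a G protein alpha subunit, by 2.89 ± 0.41 (SE; adjusted p = 1.34e-05, 4.24e-04, 0.00383 and 2.24e-05 by edgeR). Etv5 stood at 57.8, 27.001, 124.5, 195 and 10.5 CPM in Th1 WT 1 to 5, against 3.76, 5.27, 9.19, 10.4 and 5.37 CPM in Th0 WT 1 to 5.

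**Figure D3:**
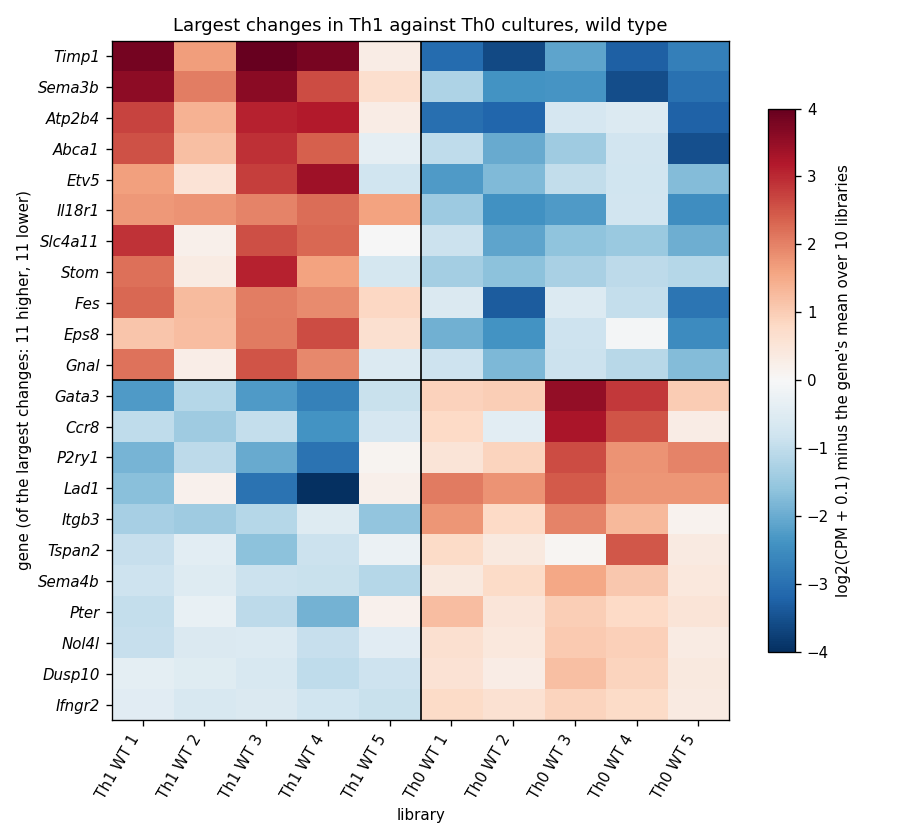
Each cell shows log2(CPM + 0.1) minus the mean of its gene over the 10 libraries, from blue (lower) to red (higher), for 11 of the 12 genes of largest rise and 11 of the 12 of largest fall under those limits, with Th1 libraries left of the line and Th0 libraries right of it. In the upper rows Th1 WT 5 is the lowest of the Th1 columns for all 11 genes, and in the lower rows Gata3 and Ccr8 are highest in Th0 WT 3 and 4.

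Under the same limits, a mean log2 CPM of 2 or more and no overlap, the largest falls after Gata3 and Ccr8 included surface and signalling genes. P2ry1, a receptor for ADP, stood at 1.67, 3.02, 1.48, 0.729 and 6.81 CPM in Th1 WT 1 to 5, against 9.05, 11.7, 39.1, 22.01 and 25.3 CPM in Th0 WT 1 to 5. For P2ry1 the log2 fold change was -2.97 ± 0.52 (SE; edgeR adjusted p = 3.53e-04). Itgb3, the integrin chain beta 3, stood at 14.8, 13.99, 17.1, 26.4 and 12.5 CPM in Th1 WT 1 to 5, against 127.4, 65.6, 147, 91.4 and 41.04 CPM in Th0 WT 1 to 5. Itgb3 passed with a log2 fold change of -2.48 ± 0.37 (SE; edgeR adjusted p = 3.97e-05). For neither gene did the groups overlap.

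Lad1, ladinin, stood at 20.4, 72.8, 8.35, 1.25 and 75.1 CPM in Th1 WT 1 to 5, against 277, 226, 355, 223 and 221 CPM in Th0 WT 1 to 5. The log2 fold change of Lad1 was -2.87 ± 0.75 (SE; edgeR adjusted p = 0.023). Th1 WT 4 was far below the other Th1 libraries and the Th0 libraries were even, and the call was lost without any 1 of Th1 WT 1, 3 and 4 and Th0 WT 3. Sema4b, a membrane semaphorin, stood at 9.61, 11.9, 9.52, 9.31 and 7.81 CPM in Th1 WT 1 to 5, against 22.5, 29.1, 50.96, 36.2 and 23.3 CPM in Th0 WT 1 to 5. Sema4b changed by -1.75 ± 0.21 (SE) on the log2 scale (adjusted p = 6.77e-07 by edgeR). The tetraspanin gene Tspan2 fell by 1.90 on the log2 scale, Pter by 1.49, Nol4l by 1.40 and the phosphatase gene Dusp10, which acts on JNK and p38, by 1.38 (adjusted p = 0.00739, 0.0204, 0.00123 and 0.00106 by edgeR). The call of Tspan2 was lost without Th0 WT 4, and that of Pter without any 1 of Th1 WT 1, 3 and 4 and Th0 WT 1.

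A second tier of genes passed with the block and not unpaired, all 5 pairs moving one way. Among those with a mean log2 CPM of 2 or more, which leaves out Ccr3 and Il10, the largest rises after Il21, Ifng and Il24 were Selp, the adhesion molecule P-selectin, at 3.15 ± 0.46, Plac8 at 3.14 ± 0.52, Ttc39c at 2.95 ± 0.57 and Tnfrsf8, the receptor CD30, at 2.56 ± 0.51 on the log2 scale (SE; adjusted p = 5.52e-05, 2.49e-04, 0.0013 and 0.00174 by edgeR). Lilr4b, H2-Q10 and AA467197 followed at 2.53, 2.51 and 2.50. Selp stood at 81.97, 26.8, 151, 206 and 5.58 CPM in Th1 WT 1 to 5, against 7.07, 1.86, 22.6, 38.5 and 0.782 CPM in Th0 WT 1 to 5. Th1 WT 5 lay below Th0 WT 1, 3 and 4 while staying above its own partner. H2-Q10 and Lilr4b have close relatives in the genome, and the labels and headers do not say how the authors' counting split such reads.

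The corresponding falls, beside Tnfsf11 and Mx1, were in the fatty acid receptor gene Cd36, the potassium channel gene Kcnk10, the immunoglobulin gene Ighg1, the synaptic gene Arc, the exhaustion factor gene Tox, the phospholipase gene Pla2g4f, the kinase substrate gene Marcks and the activating receptor gene Cd226, at -2.13, -2.09, -1.92, -1.82, -1.65, -1.63, -1.55 and -1.54 on the log2 scale with the block. Without the libraries numbered WT 4 the calls of Cd36, Kcnk10, Ighg1 and Pla2g4f were lost, as was that of AA467197 among the rises. Tox stood at 4.72, 15.8, 3.13, 1.08 and 19.99 CPM in Th1 WT 1 to 5, against 20.5, 31.1, 12.4, 7.46 and 32.9 CPM in Th0 WT 1 to 5. Its blocked test had adjusted p = 8.42e-04 by edgeR. Ighg1 is a B cell transcript, and it stood at 5.65, 13.02, 0.349, 12.6 and 10.7 CPM in Th1 WT 1 to 5, against 18.5, 23.7, 4.92, 152 and 16.9 CPM in Th0 WT 1 to 5. It was highest in Th0 WT 4, as the B cell markers were, of which 0 of 10 were called unpaired and 1 fell with the block, Cd79b. The summed level of those markers was lower in the Th1 library of every pair.

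Of 16 chemokine receptors tested, 2 rose and 1 fell, 4 rose and 1 fell with the block, among them Ccr2 and Ccr3, and the median log2 fold change was 0.32. S1pr1, the receptor for sphingosine phosphate that guides exit from lymph nodes and is listed here with them, stood at 98.4, 43.4, 106.04, 88.5 and 31.9 CPM in Th1 WT 1 to 5, against 15.9, 9.16, 15.4, 14.1 and 8.52 CPM in Th0 WT 1 to 5. edgeR put the log2 fold change of S1pr1 at 2.55 ± 0.44 (SE; adjusted p = 3.08e-04). Ccr4, a further Th2 receptor, averaged 56.8 ± 14.2 CPM in Th1 WT and 101.8 ± 63.4 CPM in Th0 WT (SD, n = 5 each) and did not pass in any of these fits.

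Of 20 costimulatory and inhibitory receptors, 3 rose and 0 fell, 4 rose and 3 fell with the block, and the median log2 fold change was -0.10. Cd28, the main costimulatory receptor, stood at 462, 437, 644, 531 and 395 CPM in Th1 WT 1 to 5, against 233, 287, 135.7, 149 and 274 CPM in Th0 WT 1 to 5. For Cd28 the log2 fold change was 1.19 ± 0.21 (SE; edgeR adjusted p = 4.70e-04). Slamf1, a homophilic receptor of T cells, stood at 182, 149.9, 172, 127.5 and 124.05 CPM in Th1 WT 1 to 5, against 69.95, 78.3, 42.5, 61.2 and 72.7 CPM in Th0 WT 1 to 5. Slamf1 passed with a log2 fold change of 1.22 ± 0.16 (SE; edgeR adjusted p = 5.32e-06). For neither did the groups overlap. Ctla4, the inhibitory receptor, averaged 349 ± 148 CPM in Th1 WT and 194 ± 48.6 CPM in Th0 WT (SD, n = 5 each), but it was higher in 3 of 5 pairs and lower in numbers 2 and 5 (log2 fold change 0.85, adjusted p = 0.0397 by edgeR), and its call was lost in the 10 libraries alone with the block and without any 1 of Th1 WT 1, 3 and 4 and Th0 WT 3, 4 and 5. Cd226 and Cd96, receptors that share the ligand CD155, both fell with the block, by 1.54 and 1.43 on the log2 scale (adjusted p = 7.71e-05 and 2.28e-04 by edgeR).

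Foxp3, the lineage factor of regulatory T cells, was near 2 CPM or below in most libraries. It stood at 0.604, 1.18, 2.44, 2.07 and 2.07 CPM in Th1 WT 1 to 5, against 1.16, 1.86, 1.0005, 1.83 and 3.19 CPM in Th0 WT 1 to 5. The groups overlapped, and its log2 fold change was -0.11 ± 0.54 (SE). Of 19 genes of the regulatory T cell list, 4 rose and 2 fell, also with the block, and the median log2 fold change was -0.07. Il2ra, the high-affinity chain of the IL-2 receptor, stood at 2134, 1826, 3169, 3442 and 1389 CPM in Th1 WT 1 to 5, against 972, 815, 1457, 1414 and 673 CPM in Th0 WT 1 to 5. The log2 fold change of Il2ra was 1.17 ± 0.22 (SE; edgeR adjusted p = 0.00105). Itgb8, an integrin chain that activates TGF-beta, rose by 2.15 ± 0.50 (SE) and the zinc-finger factor gene Ikzf4 by 0.96 ± 0.25 (SE) on the log2 scale, while Izumo1r, a folate receptor family gene, and Lrrc32, which anchors latent TGF-beta, changed by -0.85 ± 0.22 and -1.60 ± 0.47 (SE; adjusted p = 0.00879, 0.0208, 0.0216 and 0.0484 by edgeR). The call of Itgb8 was lost without Th1 WT 3, that of Ikzf4 without any 1 of Th1 WT 1 and 3 and Th0 WT 2 and 5, that of Izumo1r without any 1 of Th1 WT 1, 3 and 4 and Th0 WT 2 and 5, and that of Lrrc32 without any 1 library other than Th1 WT 5 and Th0 WT 1.

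Cytokine feedback genes were higher where they passed, and receptor-signal genes went in both directions with the block. Of 19 STAT and SOCS genes and their targets 2 rose and 0 fell, and 3 rose with the block, against a median log2 fold change of -0.11. Socs3, the feedback inhibitor whose promoter is shown above, stood at 168, 84.3, 144.6, 153 and 24.02 CPM in Th1 WT 1 to 5, against 27.6, 13.7, 34.5, 41.5 and 9.59 CPM in Th0 WT 1 to 5. Socs3 rose by 2.18 ± 0.46 (SE) on the log2 scale (adjusted p = 0.00344 by edgeR). It was higher in all pairs, and the groups overlapped because Th1 WT 5 lay below Th0 WT 1, 3 and 4. Bcl3, a cofactor of NF-kappa-B, rose by 1.20 ± 0.35 (SE, adjusted p = 0.0463 by edgeR), and the kinase gene Pim1 rose with the block by 0.58 ± 0.16 (SE, adjusted p = 0.0233 by edgeR) on the log2 scale. The call of Bcl3 was lost without any 1 of Th1 WT 1, 3 and 4 and Th0 WT 1, 2, 4 and 5, and that of Pim1 without the libraries numbered WT 4. Socs1, at -0.31 on the log2 scale, passed in none of these fits.

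Among 22 early factors of T cell receptor signalling, 1 rose and 0 fell, 3 rose and 2 fell with the block, and 5 rose and 6 fell in the 10 libraries alone with the block. Nfatc2, a calcium-regulated factor, stood at 104.4, 95.2, 126.4, 150.2 and 52.7 CPM in Th1 WT 1 to 5, against 51.6, 55.3, 72.6, 57.6 and 38.1 CPM in Th0 WT 1 to 5. edgeR put the log2 fold change of Nfatc2 at 0.94 ± 0.20 (SE; adjusted p = 0.00443). The AP-1 members Fosl2 and Jun rose with the block, by 1.94 ± 0.42 and 0.93 ± 0.21 (SE; adjusted p = 0.00343 and 0.00519 by edgeR), and Rel, an NF-kappa-B subunit, fell with Tox. Of the ETS factors and ERK feedback genes 3 of 22 rose and 1 fell, 3 rose and 4 fell with the block. Besides Etv5 and Elk1, which ERK phosphorylates, the repressor gene Etv6 rose by 0.77 ± 0.17 (SE), and the phosphatase gene Dusp4 changed by -0.74 ± 0.18 (SE; adjusted p = 0.00673 and 0.0109 by edgeR). The call of Dusp4 was lost without Th0 WT 3, and that of Elk1 in the 10 libraries alone with the block and without any 1 library other than Th1 WT 2 and 5 and Th0 WT 1.

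Naive and quiescence genes were split. Of 20, 1 rose, S1pr1, and 0 fell, 3 rose and 2 fell with the block, and the median log2 fold change was -0.09. With the block Il7r, the IL-7 receptor, and the chromatin organizer gene Satb1 rose by 0.73 and 0.74, and Tcf7, the factor TCF-1 of naive and memory cells, fell by 0.68 on the log2 scale (adjusted p = 0.0272, 0.0313 and 0.0184 by edgeR). All 3 calls were lost without the libraries numbered WT 4.

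Purinergic receptors changed in both directions. Of 13 genes 2 rose and 2 fell, and 3 rose and 2 fell with the block. P2rx7, the ATP-gated channel that triggers cell death and shedding of surface proteins in T cells, stood at 23.1, 38.6, 47.9, 41.6 and 21.9 CPM in Th1 WT 1 to 5, against 4.77, 10.2, 5.12, 3.60 and 10.1 CPM in Th0 WT 1 to 5. For P2rx7 the log2 fold change was 2.35 ± 0.39 (SE; edgeR adjusted p = 2.14e-04). P2rx4, a related channel, rose by 0.88 ± 0.23 (SE, adjusted p = 0.0224 by edgeR), and P2ry10, a lipid receptor, was the member that fell beside P2ry1. The call of P2rx4 was lost without any 1 of Th1 WT 1, 3 and 4 and Th0 WT 2 and 5. Of 16 semaphorins, plexins and neuropilins 2 rose and 2 fell, and 5 rose and 2 fell with the block. Plxnd1, a plexin, was the member that fell beside Sema4b. Sema4f, another membrane semaphorin, stood at 50.3, 12.1, 113.4, 185 and 5.32 CPM in Th1 WT 1 to 5, against 6.70, 3.83, 5.92, 7.30 and 1.99 CPM in Th0 WT 1 to 5. Sema4f passed with a log2 fold change of 3.83 ± 0.63 (SE; edgeR adjusted p = 1.79e-04). Th1 WT 5 lay below Th0 WT 1, 3 and 4.

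Of 13 tested metalloproteinases and inhibitors 2 rose and 0 fell. These were Timp1 and Mmp10, the protease stromelysin 2, at 1.18, 0.595, 5.96, 3.67 and 0.603 CPM in Th1 WT 1 to 5, against 0, 0.0263, 0, 0 and 0 CPM in Th0 WT 1 to 5. The Th0 value of 0.0263 CPM is at or below the floor of 3 counts, so no fold is given. With the block Adam10, a sheddase of surface proteins, fell (adjusted p = 9.11e-04 by edgeR). Of 15 tested calcium pumps and channels 1 rose, Atp2b4, and with the block the channel genes Trpm4 and Orai1 passed as well, Trpm4 higher and Orai1 lower (adjusted p = 0.0258 and 0.0443 by edgeR). Of 20 integrins and adhesion genes 1 rose and 1 fell, Itgb8 and Itgb3, against 2.22% and 0.818% of all genes. In the list of sterol efflux genes Abca1 was the 1 member of 14 that rose unpaired, 2 rose with the block, and Abcg1, its partner in cholesterol export, averaged 10.7 ± 4.20 CPM in Th1 WT and 7.66 ± 2.99 CPM in Th0 WT (SD, n = 5 each).

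Few metabolic and proliferation genes passed. Of 20 cholesterol synthesis genes 0 rose and 0 fell unpaired and with the block, and of 20 nuclear genes of oxidative phosphorylation likewise 0 and 0. At an unadjusted p under 0.05 the unpaired test by edgeR would have passed 3 and 2 of these genes, and DESeq2 called 0 and 0. These counts, and those of the glycolysis and cell cycle lists below, stand against 3205 of 21873 genes at that level and 991 called by DESeq2. Of 24 rows of the glycolysis and hypoxia list 0 rose and 0 fell unpaired (2 at an unadjusted p under 0.05 by edgeR, 1 by DESeq2), and 2 rose with the block. These were Hif1a, the hypoxia-inducible factor, and Egln3, its hydroxylase, which rose by 1.01 ± 0.19 and 1.84 ± 0.30 (SE; adjusted p = 8.47e-04 and 1.84e-04 by edgeR). Hif1a stood at 908, 619.8, 1196, 1151 and 455 CPM in Th1 WT 1 to 5, against 450.0, 288, 587, 556 and 255 CPM in Th0 WT 1 to 5. It was higher in every pair.

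Of 22 cell cycle genes 0 rose and 0 fell unpaired (3 at an unadjusted p under 0.05 by edgeR, 0 by DESeq2), and 2 fell with the block, the replication helicase genes Mcm5 and Mcm6, by 0.51 and 0.28 on the log2 scale, calls that were lost without the libraries numbered WT 4. Mki67, the proliferation marker, averaged 1171 ± 212 CPM in Th1 WT and 1233 ± 118.7 CPM in Th0 WT (SD, n = 5 each). Of 19 BCL2 family and death genes 2 rose and 0 fell. Tnfsf10, the death ligand TRAIL, stood at 90.8, 53.8, 117.1, 129.7 and 84.7 CPM in Th1 WT 1 to 5, against 28.4, 28.6, 58.8, 39.7 and 47.6 CPM in Th0 WT 1 to 5. The log2 fold change of Tnfsf10 was 1.23 ± 0.24 (SE; edgeR adjusted p = 0.00131). Bcl2l11, the death-promoting factor BIM, rose by 1.14 ± 0.28 (SE, adjusted p = 0.014 by edgeR), a call lost without Th1 WT 1 or Th1 WT 3.

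The blocked fit of the 10 libraries alone gave other counts for several lists, against 4.86% of genes higher and 3.92% lower. Cholesterol synthesis genes fell in 4 of 20, among them Hmgcs1, Idi1 and Cyp51, each lower in 5 of 5 pairs (adjusted p = 0.0323, 0.00722 and 0.0335 by edgeR). Among activation cytokines 5 rose and 0 fell, among costimulatory and inhibitory receptors 4 rose and 5 fell, and among naive and quiescence genes 4 rose and 4 fell. Integrins and adhesion genes gave 3 and 3, semaphorins and their receptors 7 and 2, ETS factors and ERK feedback genes 2 and 5, glycolysis and hypoxia genes 4 and 0, chemokine receptors 5 and 1, Th2 genes 5 and 2, and death genes 1 and 2. B cell markers fell in 3 of 10, and of the 8 CD8 T cell and natural killer cell markers 0 rose and 1 fell. Of the named genes called unpaired or with the block over all libraries, 13 did not pass here, namely Ccr8, Tnfsf11, Il24, Ccr2, Ciita, Il13, Rora, Csf2, Il12a, Trpm4, Mcm6, Bcl2l11 and Klrc1 (adjusted p = 0.052 to 0.203 by edgeR).

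**Figure D4:**
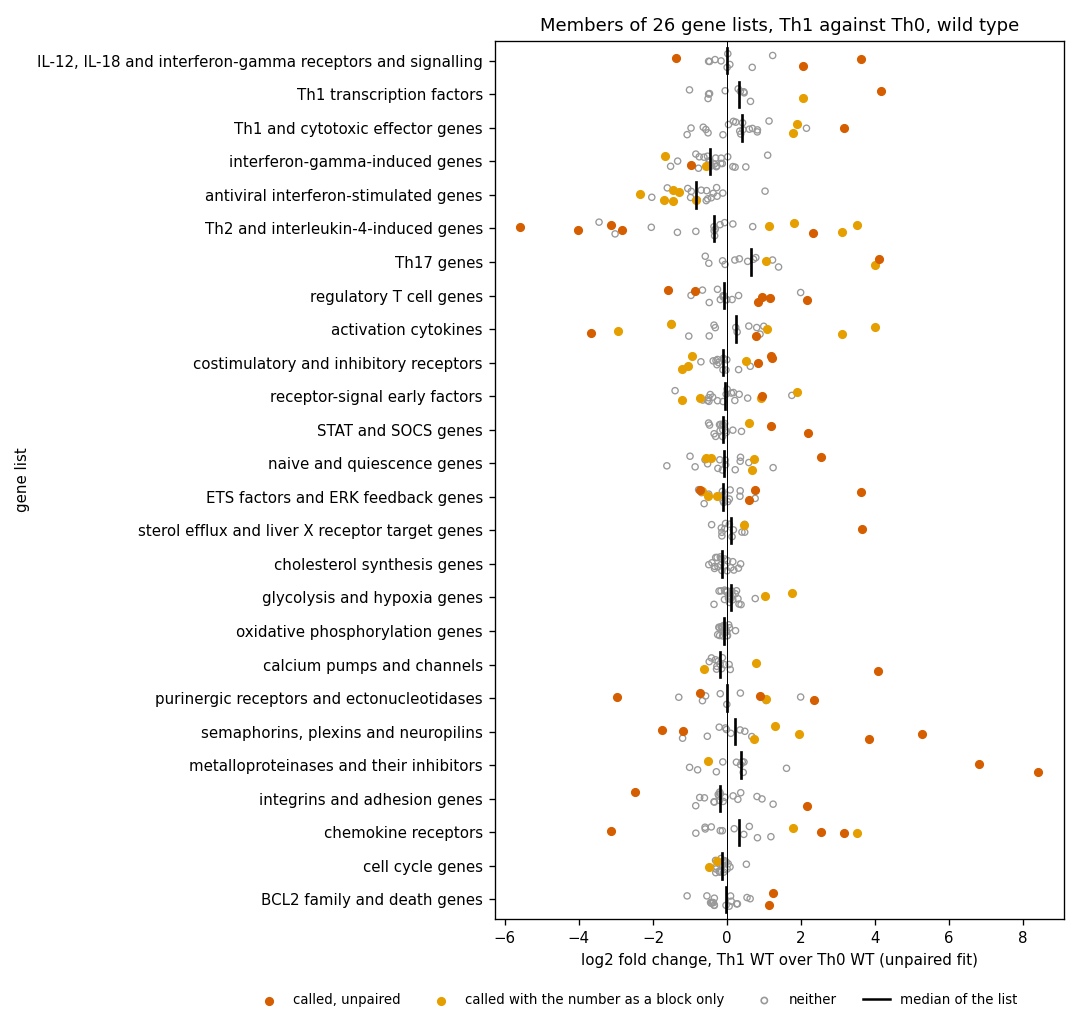
Each point is a gene of 1 of 26 lists, placed by its log2 fold change of Th1 WT over Th0 WT in the unpaired fit, filled where it passed unpaired or with the block alone, and black bars mark the list medians. The medians of the interferon lists lie left of 0, at -0.46 and -0.83, and the point farthest right, Mmp10, has a fitted value that depends on how its Th0 zeros are treated.

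The same cultures of the other genotypes gave separate libraries for the Th1 effect. Cells of miR-150 knockout (KO) mice had 5 Th1 and 5 Th0 libraries, and those of miR-150 knock-in (KI) mice 5 Th1 and 4 Th0 libraries, of the same strain and culture protocol, and the labels do not describe the alleles further. In KO cells 2080 genes passed (9.51%), 1166 higher (5.33%) and 914 lower (4.18%), and in KI cells 1295 (5.92%), 652 higher (2.98%) and 643 lower (2.94%). Of the 486 genes higher in wild type, 426 were also called higher in KO cells and 305 in KI cells, which is 87.7% and 62.8% of the wild-type list and 36.5% and 46.8% of the KO and KI lists. Of the 179 lower genes, 163 were called lower in KO cells, and the shares called lower in KO and KI cells were 91.1% and 58.1% of the wild-type list and 17.8% and 16.2% of the others. A gene called in one direction in wild type was called in the other in 0 cases. In all 3 genotypes, 298 genes were called higher and 100 lower.

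The difference of the Th1 effect between genotypes was tested directly. By edgeR 0 genes were called different between wild type and KO (0.0% of those tested) and 0 between wild type and KI (0.0%), and DESeq2 called 3 and 1. At an unadjusted p under 0.05 edgeR passed 384 and 712 genes, both less than a share of 0.05 of those tested. A difference that was not called is not shown to be absent. For Gata3 the difference, wild type minus KI, was -1.33 ± 0.57 (SE) on the log2 scale and did not pass (adjusted p = 0.99999 by edgeR). All 24 of the largest wild-type changes passed in KO cells and 21 in KI cells. Gata3 changed by -4.02 in wild-type, -4.10 in KO and -2.68 in KI cells, and Il18r1 by 3.61, 3.09 and 2.89 on the log2 scale. Ifng, which did not pass unpaired in any genotype, had unpaired log2 fold changes of 1.90, 2.17 and 1.74 (adjusted p = 0.567, 0.344 and 0.549 by edgeR), and Irgm1 changed by -0.98, -1.28 and -1.16 (adjusted p = 0.0355, 0.00223 and 0.0121 by edgeR).

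**Figure D5:**
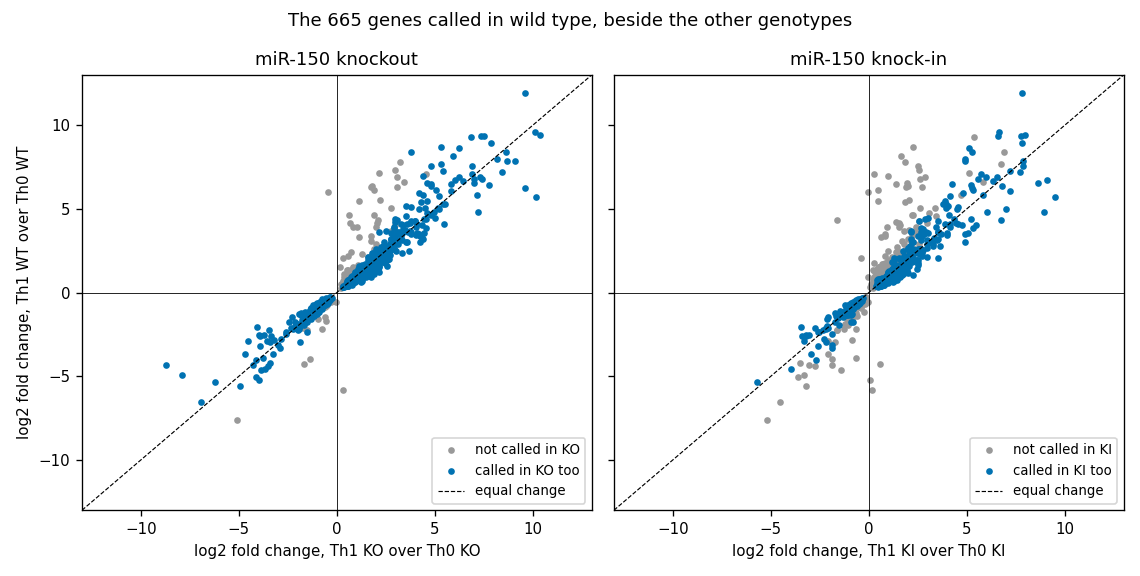
Each point is 1 of the 665 genes called in wild type, with its log2 fold change of Th1 over Th0 in wild type (vertical) against that in KO cells (left panel) and KI cells (right panel), in blue where the other genotype called it too. Of the 665, 589 are blue in the left panel and 409 in the right, and 485 of 486 higher and 178 of 179 lower genes keep their sign in KO cells, against 482 and 176 in KI cells.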

How the data were processed

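The values were whole-number read counts per gene that the authors deposited for each library in a pair of lane columns, which were summed here. Libraries were made with a stranded poly(A) kit and sequenced as 2x150 bp pairs, per the labels' protocols. Reads were trimmed and aligned with STAR, per the file headers. The submitters' processing notes name GRCh38, although the gene IDs are those of mouse, while no counter, annotation or strand setting is stated (not given in the sources used here). Antisense and overlapping genes therefore cannot be separated.

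All 44 libraries entered 1 edgeR 4.0.16 quasi-likelihood fit (R 4.3.3, limma 3.58.1) with 9 group means, TMM scaling and filterByExpr, which share 1 estimate of the spread, and p-values were adjusted by Benjamini and Hochberg over 21873 genes with a threshold of 0.05. Levels are CPM on the TMM-scaled totals. Standard errors were the log2 fold change over the root of the F statistic. Differences of the Th1 effect between genotypes were contrasts of the same fit. Before lanes were summed their totals stood in a ratio of 3.59 to 3.93. Within Th1 WT and within Th0 WT no library was a copy of another (lowest median chi-square per gene 6.33), and other pairs of libraries were not compared in this way.

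Same-numbered libraries of Th1 and Th0 cultures correlated in their deviations from the group means at 0.56 to 0.77 in wild-type, 0.38 to 0.72 in KO and 0.13 to 0.76 in KI cells, so every pair was over 0.1 and the numbers were taken to pair the libraries. Libraries of other numbers reached 0.44 in KO and 0.27 in KI cells. Of 5 Th1 KI libraries, 3 correlated best with the Th0 library of their own number, and Th1 KI 2 had none. The limit of 0.1 thus does not separate pairs from other libraries in KI cells, which the block over all libraries includes. The origin of the pairing is not given in the labels.

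Named genes were the 8 genes Ifng, Tbx21, Il12rb1, Il12rb2, Stat4, Il4, Gata3 and Foxp3, the 12 largest called changes each way without overlap between the groups, the 10 largest each way called with the block and not unpaired with all 5 pairs in one direction, both at a mean log2 CPM of 2 or more, and up to 4 called members of each list. Predicted genes were left out. A few genes that the rule names are not reported here. Further list members named in the text were chosen after their values were seen. The members and lists were chosen with earlier results of these data known.

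Alternatives were DESeq2 1.42.0, other scaling, no filter, the 10 libraries alone, the number as a block, a term for Cd8a, both libraries numbered 4 left out, and each library left out in turn. Simulated counts were made for the wild-type comparison of Th1 with Th0. In these the unpaired test recovered 23 of 50 genes changed 1.5-fold, 44 of 50 at 2-fold and 46 of 50 at 4-fold. It recovered 50 of 50 at 8-fold, and made 9 false calls over 21873 genes. With the block the recovery was 20, 43, 46 and 50 of 50. The simulated counts held no effect shared by same-numbered libraries, so they cannot show whether the block finds more. In the real libraries the block raised the calls from 665 to 1563. Il21 and Ifng, at 3.99 and 1.90 on the log2 scale there, did not pass unpaired (adjusted p = 0.169 and 0.567 by edgeR). The simulated shares therefore do not tell how many real changes of these sizes the unpaired test finds.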

Additional observations from a re-analysis of the deposited data

Results flagged for a closer look

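In 19 of 214 sets of 5 libraries, each set being a named gene in Th1 WT or in Th0 WT, the highest library stood apart from the other 4 by more than Dixon's 95% limit. That is 8.88% of the sets. The limit holds for independent sets of normally distributed values. CPM values that were not log-transformed, of named genes measured in the same libraries, need not meet this, so the share that chance would flag is not known. Of the 19, 7 were in Th0 WT 4, 3 each in Th1 WT 4, Th1 WT 5 and Th0 WT 1, 2 in Th0 WT 3 and 1 in Th0 WT 2.

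In Th1 WT 4, Ccr2 stood at 32.8 CPM (next Th1 library 7.94), Il10 at 25.8 CPM (5.37) and Klrc1 at 73.9 CPM (17.2). In Th0 WT 4, Klrc1 stood at 29.1 CPM (next Th0 library 8.82), Ifng at 1660.5 CPM (452), Hlx at 0.613 CPM (0.0870), Tspan2 at 28.1 CPM (8.61), and the B cell genes Cd79b at 49.9 CPM (11.4), Ighg1 at 152 CPM (23.7) and Ciita at 35.2 CPM (9.45). These are the libraries with Cd8a transcripts at 131.5 CPM in Th1 WT 4 and 112.7 CPM in Th0 WT 4, and the part of CD8 T cells or B cells in these values was not tested.

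In Th1 WT 5, Cd36 stood at 9.89 CPM (next Th1 library 2.50), Cd96 at 65.1 CPM (18.7) and Csf2 at 21.1 CPM (6.85). In Th0 WT 1 the interferon-stimulated genes Irf7, Mx1 and Rtp4 stood at 36.9 CPM (next Th0 library 6.84), 80.2 CPM (21.9) and 7.40 CPM (2.48). Il12a stood at 17.7 CPM in Th0 WT 3 (2.99) and the calcium channel gene Orai1 at 35.04 CPM (25.9). Mmp10 stood at 0.0263 CPM in Th0 WT 2, at or below the floor of 3 counts, and at 0 in the other Th0 libraries.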

How the results depend on the processing

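The number of calls depended on the fit. The unpaired test gave 665 genes, 486 higher and 179 lower. With the replicate number as a block it gave 1563, 936 and 627. In the 10 libraries alone it gave 195 genes unpaired, 50 of them lower, and 1592, 882 and 710 with the block. Without both libraries numbered 4 it gave 308, 239 and 69, and with a term for Cd8a 1038 genes, 321 of them lower. DESeq2 called 991 genes, 276 of them lower. Leaving out each library in turn gave 358 to 1285 genes, 288 to 800 higher and 70 to 485 lower, the lowest without Th1 WT 3 and the highest without Th1 WT 5. With the block 3984 genes passed in KO and 2391 in KI cells, and the difference of the effect by DESeq2 was called in 3 genes for WT minus KO and 1 for WT minus KI.

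Of the 48 named genes called unpaired, 26 kept their call under every alternative run and 48 kept their direction. With the block, 46 of them kept the call, Csf2 and Il13 lost it and 53 other named genes gained one. Those gains follow in part from the naming rule, which took some genes for passing with the block. In the 10 libraries alone, unpaired, 20 of the 48 lost the call, and 13 lost it without both libraries numbered 4. Of the uncalled genes, Foxp3 turned from -0.11 to 0.0233 with the block and ran from -0.28 to 0.18 as each library was left out, and Klrc1 ran from -0.26 without Th1 WT 4 to 2.33 without Th0 WT 4. The causes were not tested. At these depths the 3-count floor was 0.0254 to 0.0369 CPM, which limits genes at or near it in a group, such as Mmp10.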

Other observations

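Mitochondrial transcripts summed to 22124 to 40902 CPM in Th1 WT and 22407 to 41231 CPM in Th0 WT, highest in number 5 of both cultures, and 0 of 10 passed by edgeR unpaired or with the block. Stress and dissociation genes summed to 9959 to 12548 CPM in Th1 WT and 11202 to 12937 CPM in Th0 WT. Erythroid markers summed to 0.672 to 2.19 CPM in Th1 WT and 1.09 to 4.74 CPM in Th0 WT. Markers of gamma-delta and innate-like T cells summed to 9.83 to 61.7 CPM in Th1 WT and 9.77 to 72.8 CPM in Th0 WT. By edgeR 0 genes of these 3 lists passed unpaired or with the block, with 0, 0 and 1 at an unadjusted p under 0.05 in the unpaired test, and DESeq2 called 0. Over all genes that unadjusted level passed 3205 of 21873, and DESeq2 called 991. In the 10 libraries alone with the block 1 of the 12 stress and dissociation genes fell.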
